A study of Mus musculus with 37 samples.

Results

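The genes described here are 6 leukocyte adhesion molecules, Vcam1, Icam1, Selp, Sele, Selplg and Cd44, followed across mouse kidneys with and without ureteral obstruction. They were chosen by name, and each was read from the probe annotated to its symbol that had the highest mean signal. Of the 6, 5 had a probe detected on at least 3 arrays and were tested, among 12866 genes in all. The remaining gene, Sele, was not detected on any array.

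Whole-kidney RNA was measured on Illumina mouse bead arrays in 37 kidneys of 25 mice. In 13 mice the ureter of 1 kidney was tied (unilateral ureteral obstruction), which drives tubular injury, inflammation and fibrosis, and the unobstructed kidney of the same mouse served as the contralateral kidney. Twist1-deleted mice (ggt-cre+;Twist flox/flox, on a mix of C57Bl/6 and sv129) gave 4 obstructed and 3 contralateral kidneys. Their Twist-line controls (ggt-cre-;Twist flox/flox, same background) gave 3 of each. Snail-deleted mice (ggt-cre+;Snail flox/flox, on a mix of C57Bl/6 and Balb/c) and Snail-line controls (ggt-cre-;Snail flox/flox, same background) also gave 3 of each. These mice were 10 weeks old. Healthy, unoperated kidneys came from 3 Twist1-deleted mice and 3 Snail-deleted mice, all 26 weeks old, and from 3 wild-type mice with the ggt-cre transgene and 3 without it, all 10 weeks old on the C57Bl/6 and sv129 mix. The labels place the loss of Twist1 or Snail in ggt-cre+ mice in proximal tubular epithelial cells. They do not name the endothelium or the leukocytes as targets. How long the ureter had been tied is not given in the sources used here. Age differed between the healthy deleted mice and the wild-type mice, and the background differed between the lines, so neither can be told apart from genotype in those comparisons.

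Leukocytes leave the blood by rolling on selectins and then arresting on immunoglobulin-family ligands. P-selectin (Selp), stored in endothelium and platelets, and E-selectin (Sele), made by cytokine-activated endothelium, bind the leukocyte glycoprotein PSGL-1 (Selplg). Vcam1 and Icam1 on endothelium, and on injured tubular cells, hold them firmly, Vcam1 by binding the leukocyte integrin VLA-4 and Icam1 by binding LFA-1 and Mac-1. Cd44 binds hyaluronan and, in certain glycoforms, E-selectin, and it appears on leukocytes, on mesenchymal cells and on injured tubules.

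Levels are given as normalized log2 intensity, so a difference of 1 is a doubling, and a probe counts as detected on an array where the deposited detection p-value is below 0.05. Between 16977 and 20682 probes were detected per array, the median raw signal of an array lay between 93 and 133.8, and arrays of the same group correlated at 0.935 to 0.992. The number of arrays per group limits the precision of every value. The targeted genes were close to background: Twist1 was detected in 2 of 4 Twist1-deleted and 2 of 3 Twist-line control obstructed kidneys, and Snai1 in 2 of 3 Snail-deleted and 3 of 3 Snail-line control obstructed kidneys. Neither passed the test of deletion (log2 difference -0.34, adjusted p = 0.507 for Twist1, and -0.36, adjusted p = 0.667 for Snai1, limma), and where these probes lie relative to the deleted exons is not given in the sources used here. Adjusted p-values of genes are from limma with Benjamini-Hochberg adjustment over the 12866 genes, unless another setting is named, and a gene is called where it is below 0.05.

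Promoter windows of 250 bases before to 50 bases after the annotated start were at hand for Icam1, Cd44, Selp and Sele (RefSeq, GRCm38.p6), and the 3 of them with a detected transcript are shown because the first 2 rose in every genotype while Selp did not. The Icam1 window is chr9:21015690-21015989 on the plus strand, that of Cd44 chr2:102901616-102901915 on the minus strand, and that of Selp chr1:164115014-164115313 on the plus strand. Capitals mark matches, on either strand, to the AP-1 motif TGANTCA or the interferon-gamma activated site (GAS) motif TTCNNNGAA.
Icam1: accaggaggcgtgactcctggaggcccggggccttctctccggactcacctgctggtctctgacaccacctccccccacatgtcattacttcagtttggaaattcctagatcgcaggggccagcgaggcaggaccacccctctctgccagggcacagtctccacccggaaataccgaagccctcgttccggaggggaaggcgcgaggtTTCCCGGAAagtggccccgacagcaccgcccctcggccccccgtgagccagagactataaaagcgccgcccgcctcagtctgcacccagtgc
Cd44: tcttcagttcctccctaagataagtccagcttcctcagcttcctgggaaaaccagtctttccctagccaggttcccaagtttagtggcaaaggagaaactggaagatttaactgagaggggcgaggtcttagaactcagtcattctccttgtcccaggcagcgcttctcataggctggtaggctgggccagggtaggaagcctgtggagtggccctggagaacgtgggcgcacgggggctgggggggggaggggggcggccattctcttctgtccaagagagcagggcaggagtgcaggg
Selp: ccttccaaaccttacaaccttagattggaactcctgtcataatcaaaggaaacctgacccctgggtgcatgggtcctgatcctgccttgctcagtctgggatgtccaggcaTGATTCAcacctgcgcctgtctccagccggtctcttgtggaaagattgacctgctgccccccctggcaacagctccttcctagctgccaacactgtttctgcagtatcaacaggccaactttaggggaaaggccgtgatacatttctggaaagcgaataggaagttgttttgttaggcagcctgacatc
The Icam1 window held 1 GAS match, from base -42 to base -34 before the start, and the Selp window 1 AP-1 match, from -139 to -133. The Sele window, not printed, held 1 match of each kind, and the Cd44 window held neither. Among all 32851 promoter windows of the table, 7.81% held an AP-1 match and 8.3% a GAS match. The ETS core GGAANT was found 3 times in the Icam1 window, where 2 of the matches overlap on opposite strands, 2 times in Selp and 1 time each in Sele and Cd44, and in 53.4% of all windows. None of the 4 windows held a match to the NF-kB motif as searched, GGGRNNYYCC (R is A or G, Y is C or T, N is any base). Of all windows, 8.46% held one. NF-kB sites that depart from these letters were not searched, so their absence is not shown. These matches describe the letters in the windows only.

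Vcam1 and Cd44 were among the genes with the largest change in the obstructed kidney. Over the mean of the 4 genotypes, Vcam1 was 30.6-fold higher in obstructed than in contralateral kidneys (log2 change 4.94, SE 0.23, adjusted p = 4.1e-16) and ranked 5 of 12866 genes by its log2 change. Cd44 ranked 7, with a log2 change of 4.51 (SE 0.24, adjusted p = 5.35e-15). Icam1 rose by 2.29 (SE 0.15, adjusted p = 2.36e-13), Selplg by 2.04 (SE 0.16, adjusted p = 9.52e-12) and Selp by 0.62 (SE 0.12, adjusted p = 4.31e-05) on the log2 scale. All 5 tested members therefore rose, against 33.6% of all genes tested. The medians of the 5 members and of all genes were 2.29 and 0.01. In whole-kidney RNA, more cells of a type and more RNA per cell cannot be told apart.

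**Figure D1:**
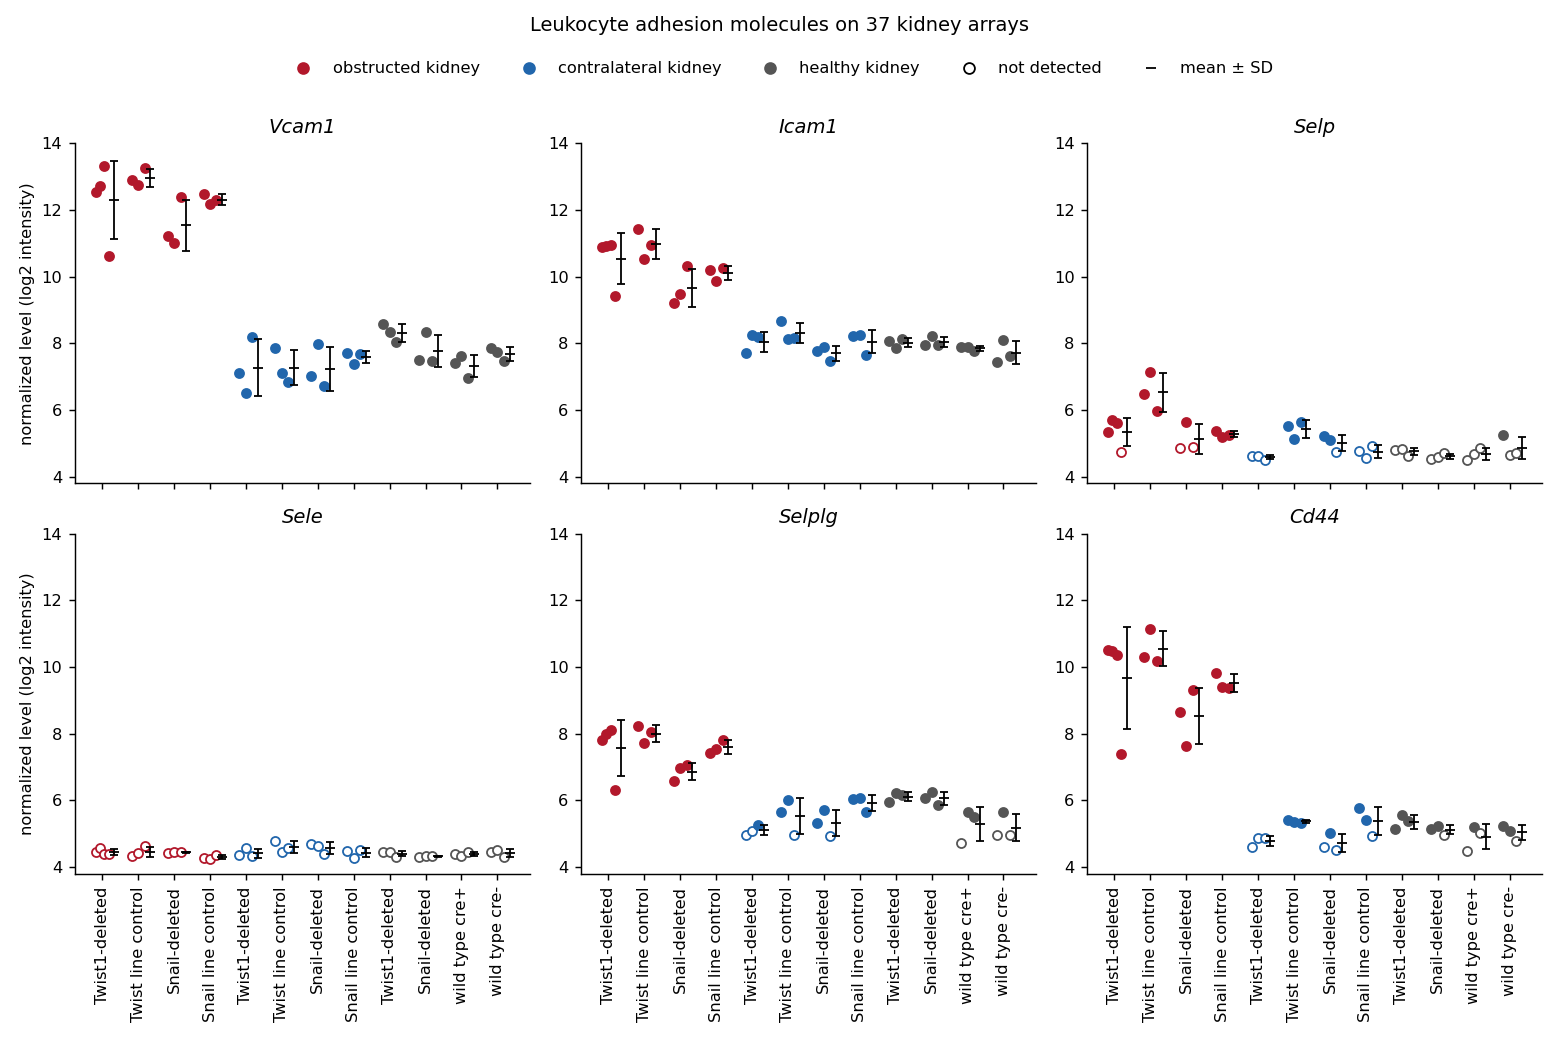
Normalized level (log2 intensity) of the 6 adhesion molecules on each of the 37 arrays, by genotype and kidney phenotype; open circles are arrays on which the probe was not detected, and the bars give the mean ± SD of each group. Vcam1, Icam1, Selplg and Cd44 were higher in each of the 13 obstructed kidneys than in any of the 24 other kidneys, Selp overlapped, and Sele stayed undetected throughout. How many of all genes separate in this way was not counted.

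In the Twist1-deleted mice, Vcam1 reached 12.55, 12.72, 13.31 and 10.62 in the obstructed kidneys, against 7.11, 6.51 and 8.19 in the contralateral kidneys (log2 change 5.03, SE 0.44, adjusted p = 2.85e-09). Twist-line controls had 12.89, 12.75 and 13.25 in obstructed kidneys, against 7.87, 7.11 and 6.85 in contralateral kidneys (5.69, SE 0.47, adjusted p = 7.3e-10). Snail-deleted mice had 11.22, 11.0 and 12.4 in obstructed kidneys, against 7.03, 7.98 and 6.71 on the contralateral side (4.3, SE 0.47, adjusted p = 5.88e-07). Every obstructed kidney exceeded every contralateral kidney of its genotype, and the 3 lowest obstructed values came from 1 Twist1-deleted and 2 Snail-deleted mice. Such separation was not counted over all genes. Snail-line controls had 12.48, 12.17 and 12.29 in obstructed kidneys, against 7.72, 7.37 and 7.68 in contralateral kidneys (4.72, SE 0.47, adjusted p = 3.07e-08). All 4 probes annotated to Vcam1 rose over the mean of the genotypes, by 0.22 to 4.94.

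Cd44, the hyaluronan receptor, was near or below the detection limit without obstruction. It was detected in 13 of 13 obstructed, 6 of 12 contralateral and 8 of 12 healthy kidneys. In Twist1-deleted mice its levels were 10.5, 10.48, 10.35 and 7.38 in obstructed kidneys, against 4.6, 4.88 and 4.86 in contralateral kidneys. It was not well above background on any of these contralateral arrays, so the group means, 9.68 and 4.78, differed by at least 23.8-fold (adjusted p = 9.11e-09). The measured log2 change was 4.9 (SE 0.46, 95% interval 3.95 to 5.84). Twist-line controls had 10.31, 11.15 and 10.19 in obstructed and 5.42, 5.36 and 5.33 in contralateral kidneys (log2 change 5.18, SE 0.49, adjusted p = 4.49e-09). The groups were far apart in both, with the obstructed kidney of mouse 7 the lowest of its 4. Snail-deleted mice had 8.66, 7.63 and 9.31 in obstructed kidneys, against 4.6, 5.02 and 4.52 in contralateral kidneys (3.82, SE 0.49, adjusted p = 4.56e-06). Snail-line controls had 9.83, 9.39 and 9.36 in obstructed kidneys, against 5.76, 5.42 and 4.93 in contralateral kidneys (4.16, SE 0.49, adjusted p = 3.37e-07). Of 9 probes annotated to Cd44, 7 were detected on at least 3 arrays, and 5 of those 7 rose with obstruction, by 0.32 to 4.51. The other 2, both dim, differed by -0.04 (adjusted p = 0.647) and -0.12 (adjusted p = 0.174), with these p-values adjusted over the 20612 kept probes.

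Icam1, the integrin ligand of firm arrest, was detected on all 37 arrays. Its lowest, median and highest levels were 9.2, 10.31 and 11.43 in obstructed kidneys, 7.46, 8.15 and 8.66 in contralateral kidneys and 7.45, 7.92 and 8.23 in healthy kidneys. The obstructed kidneys did not overlap the others, a separation not counted over all genes. Icam1 rose in each genotype: by 2.5 in Twist1-deleted mice, 2.65 in Twist-line controls, 1.96 in Snail-deleted mice and 2.06 in Snail-line controls (SE 0.29 to 0.31, adjusted p between 8.69e-08 and 4.7e-05). Selplg, the leukocyte ligand of the selectins, had a lowest, median and highest level of 6.32, 7.73 and 8.22 in obstructed kidneys, 4.92, 5.48 and 6.07 in contralateral kidneys and 4.72, 5.76 and 6.24 in healthy kidneys. It was detected in 13 of 13, 8 of 12 and 9 of 12 of them. It rose by 2.46 in Twist1-deleted mice, 2.47 in Twist-line controls, 1.54 in Snail-deleted mice and 1.68 in Snail-line controls (SE 0.31 to 0.33, adjusted p between 5.08e-07 and 0.00149). The lowest obstructed kidney, that of mouse 7, was only just above the highest healthy one.

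The vascular selectins were the dimmest of the members against background. Selp was dim and detected in 10 of 13 obstructed, 5 of 12 contralateral and 1 of 12 healthy kidneys. In Twist1-deleted mice it measured 5.34, 5.7, 5.6 and 4.74 in obstructed kidneys, against 4.61, 4.63 and 4.51 in contralateral kidneys, none of which had it well above background, so the rise was at least 1.18-fold (group means 5.35 and 4.58, adjusted p = 0.00807). The call was lost with the mouse as a fixed block (log2 change 0.65, adjusted p = 0.0799), in the authors' deposited processed values (0.98, adjusted p = 0.0731) and with only these 2 groups in the fit (0.76, adjusted p = 0.0556). Twist-line controls had 6.48, 7.15 and 5.98 in obstructed kidneys, against 5.51, 5.14 and 5.64 in contralateral kidneys (log2 change 1.11, SE 0.24, adjusted p = 0.000379). Both Twist-line groups thus had their obstructed kidneys above their contralateral ones, a separation not counted over all genes.

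In Snail-deleted mice Selp had 4.85, 5.64 and 4.88 in obstructed kidneys, against 5.21, 5.11 and 4.75 in contralateral kidneys, and the groups overlapped (log2 change 0.1, 95% interval -0.39 to 0.6, adjusted p = 0.839). Snail-line controls had 5.37, 5.19 and 5.25 in obstructed kidneys, against 4.77, 4.56 and 4.93 in contralateral kidneys, none of which had it well above background. Selp was at least 1.24-fold higher in the obstructed kidneys (group means 5.27 and 4.75) and did not pass (adjusted p = 0.0986), but it passed with median scaling (adjusted p = 0.0168), with only these 2 groups in the fit (0.0286) and with array weights (0.0182). Sele, whose raw signal lay between 82.3 and 116.2, was detected on 0 of 37 arrays, with a lowest detection p-value of 0.16026 in the obstructed kidneys, and gives only a bound at the array's background. The genotypes therefore had 5 of 5 tested members called higher with obstruction in Twist1-deleted mice (21.9% of all genes), 5 of 5 in Twist-line controls (26.7%), 4 of 5 in Snail-deleted mice (10.5%) and 4 of 5 in Snail-line controls (21.1%). Because of Selp, the count was 4 in Twist1-deleted mice and 5 in Snail-line controls under the 3 settings named for each.

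**Figure D2:**
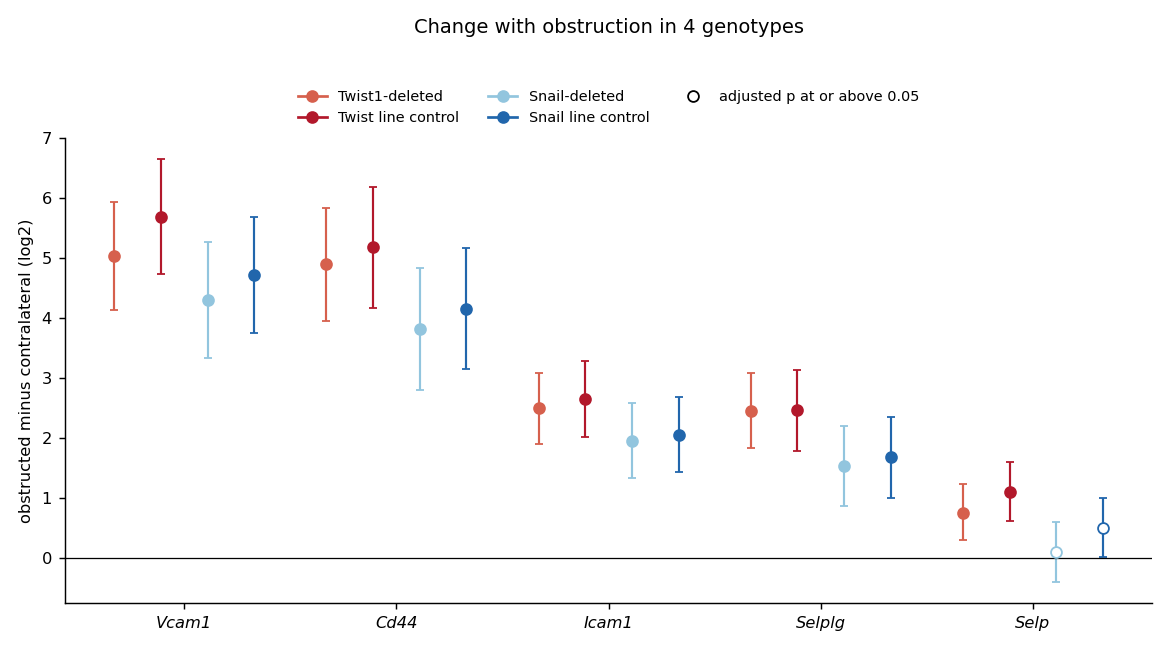
Obstructed minus contralateral log2 difference of each tested member in the 4 genotypes, with 95% intervals from limma; open circles did not pass an adjusted p of 0.05, and where contralateral kidneys were at background the measured difference is drawn. Vcam1 and Cd44 lay between 3.82 and 5.69 in all 4 genotypes, Icam1 and Selplg between 1.54 and 2.65, and Selp between 0.1 and 1.11.

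The genes that work with these molecules moved less evenly. These lists were drawn up from general knowledge with earlier results of the series known, so their counts are descriptions. Of 17 measured endothelial adhesion and transmigration molecules beside the members, 12 rose with obstruction over the mean of the 4 genotypes and 1 fell. The median change of this list was 0.83, against 0.01 over all genes. The tethered chemokine Cx3cl1 rose by 1.8 (SE 0.13, adjusted p = 8.1e-13), the endothelial adhesion molecule Mcam by 1.67 (SE 0.18, adjusted p = 4.63e-09) and Cd99 by 1.22 (SE 0.15, adjusted p = 5.44e-08), while Icam4, known from red cells, fell by 0.35 (SE 0.12, adjusted p = 0.0116). Of 15 measured NF-kB pathway genes and cytokine inducers of adhesion molecules, 12 rose and none fell, with a median of 1.02. The NF-kB subunit Relb rose by 2.69 (SE 0.2, adjusted p = 2.16e-12), the NF-kB inhibitor Tnfaip3 by 2.38 (SE 0.13, adjusted p = 7.06e-15) and the interferon-induced factor Irf1 by 2.18 (SE 0.14, adjusted p = 8.52e-14).

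On the leukocyte side, 5 of 12 measured integrins and other counter-receptors rose and 1 fell, with a median of 0.09. This share is near the background, since 33.6% of all genes rose in the same comparison. Of the subunits of the integrins that bind Vcam1 and Icam1, Itgb1 of VLA-4 (0.64, SE 0.1, adjusted p = 1.71e-06) and Itgam of Mac-1 (0.21, SE 0.06, adjusted p = 0.00225) rose. Itga4 of VLA-4 (-0.01, adjusted p = 0.955), Itgal of LFA-1 (-0.17, adjusted p = 0.193) and Itgb2, shared by LFA-1 and Mac-1 (-0.05, adjusted p = 0.717), did not pass. Itgam, Itga4, Itgal and Itgb2 were singled out after their values were seen. The integrin subunit Itgb7 (1.14, SE 0.15, adjusted p = 1.09e-07) and the P-selectin ligand Cd24a (0.47, SE 0.1, adjusted p = 0.000123) rose, and the integrin subunit Itgad fell by 0.42 (SE 0.08, adjusted p = 1.8e-05). Of 13 measured enzymes that build selectin ligands on glycoproteins, 7 rose and 3 fell, with a median of 0.22. The fucosyltransferase Fut4 rose by 1.69 (SE 0.15, adjusted p = 6.05e-11), the tyrosine sulfotransferase Tpst1 by 1.59 (SE 0.12, adjusted p = 1.98e-12) and the sialyltransferase St3gal4 by 1.04 (SE 0.15, adjusted p = 4.16e-07). Galnt1 fell by 0.47 (SE 0.18, adjusted p = 0.0254), Gcnt1 by 0.43 (SE 0.19, adjusted p = 0.0447) and St3gal3 by 0.24 (SE 0.07, adjusted p = 0.0069). Of 7 measured hyaluronan genes and Cd44 partners, 4 rose and none fell. Among them were the Cd44-associated chain Cd74 (2.71, SE 0.14, adjusted p = 3.04e-15), the membrane linker moesin, Msn (1.35, SE 0.14, adjusted p = 9.74e-10), and the hyaluronidase Hyal2 (0.4, SE 0.05, adjusted p = 3.85e-08). In obstructed kidneys no gene of these lists was called for either deletion: 0 of 17, 15, 12, 13 and 7 in limma for Twist1 and for Snail. Of all genes, 0.0311% were called for Twist1 and 0% for Snail, so these counts are not particular to the lists.

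**Figure D3:**
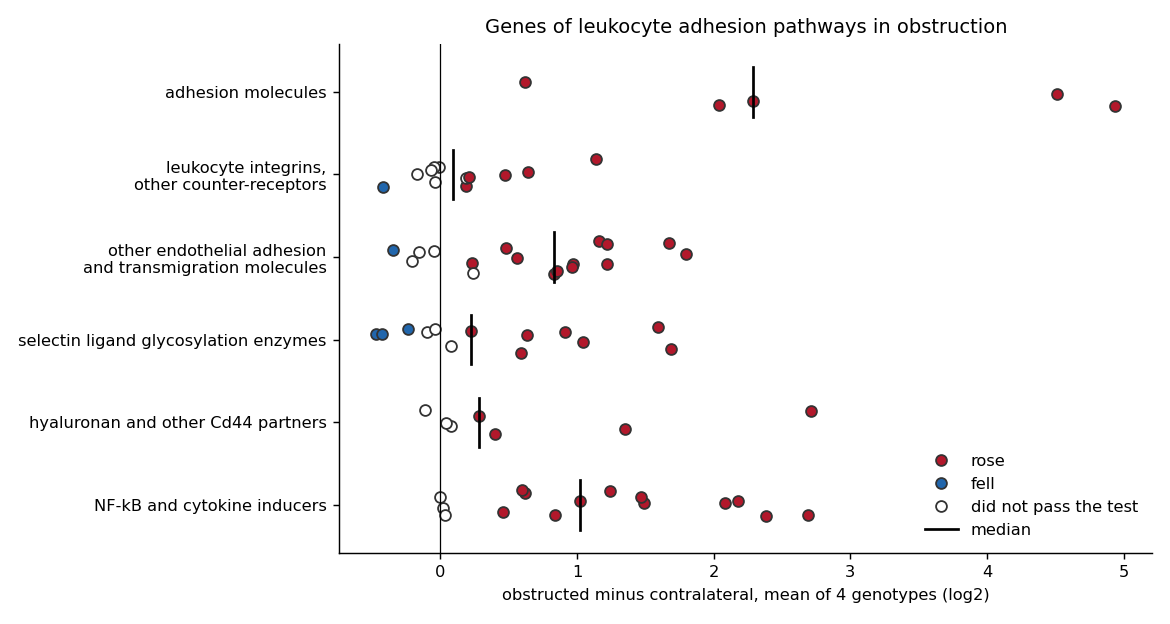
Obstructed minus contralateral log2 change, averaged over the 4 genotypes, of the 5 tested adhesion molecules and of each measured gene of 5 related lists; filled circles passed an adjusted p of 0.05 in limma and the vertical bars are medians. The medians ran between 0.09 for the leukocyte integrins and 2.29 for the adhesion molecules.

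Markers of the cell types that carry these molecules moved in the same comparison. Summed normalized intensity of 8 pan-leukocyte markers ranged between 5509 and 12540 in obstructed kidneys, against 1518 to 3292 in contralateral kidneys, and 8 of 8 rose. Macrophage and monocyte markers rose in 11 of 12 cases, with sums of 6578 to 18073 in obstructed and 1836 to 3620 in contralateral kidneys. Endothelial markers had sums of 10984 to 25075 in obstructed and 7492 to 11939 in contralateral kidneys, with 10 of 14 higher and 3 lower. Neutrophil sums reached at most 5464 in obstructed kidneys, against at most 971 in contralateral kidneys, but the ranges overlapped in every genotype. In Snail-line controls they were 550 to 597 in obstructed and 254 to 686 in contralateral kidneys. Of 6 neutrophil markers, 2 were higher and 1 lower, a share of higher markers near the 33.6% of all genes that rose. Platelet sums were 195 to 1696 in obstructed kidneys, against 130 to 299 in contralateral kidneys (2 of 4 markers higher and 1 lower). Lymphocyte sums were 175 to 450 in obstructed and 117 to 176 in contralateral kidneys (5 of 5 higher). Cd4 and Cd8a were detected on no array, and the platelet genes Gp1bb and Gp5 on none. Proximal tubule markers fell in 7 of 7 cases, with sums of 7626 to 55417 in obstructed and 57080 to 68457 in contralateral kidneys, and injured tubule markers rose in 6 of 6 (7070 to 43019 against 1767 to 3868). The part of these cell types in the changes of the adhesion molecules was not tested.

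The obstructed kidneys of mouse 7 (Twist1-deleted) and of mice 11 and 12 (Snail-deleted) stood apart from the other 10. They held the 3 lowest values of Vcam1, Icam1 and Cd44 among the 13. Mouse 7 had 7070 in the injured tubule sum, 6578 in the macrophage sum and 53313 in the proximal tubule sum. Mouse 11 had 13896, 8247 and 55417, and mouse 12 had 21831, 9432 and 39866. In the other 10 obstructed kidneys these sums were 24157 to 43019, 11051 to 18073 and 7626 to 44537. Without these 3 kidneys the obstruction calls over the mean of 4 genotypes stayed at 5 of 5, with log2 changes of 5.29 for Vcam1, 4.9 for Cd44, 2.55 for Icam1, 2.19 for Selplg and 0.61 for Selp.

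**Figure D4:**
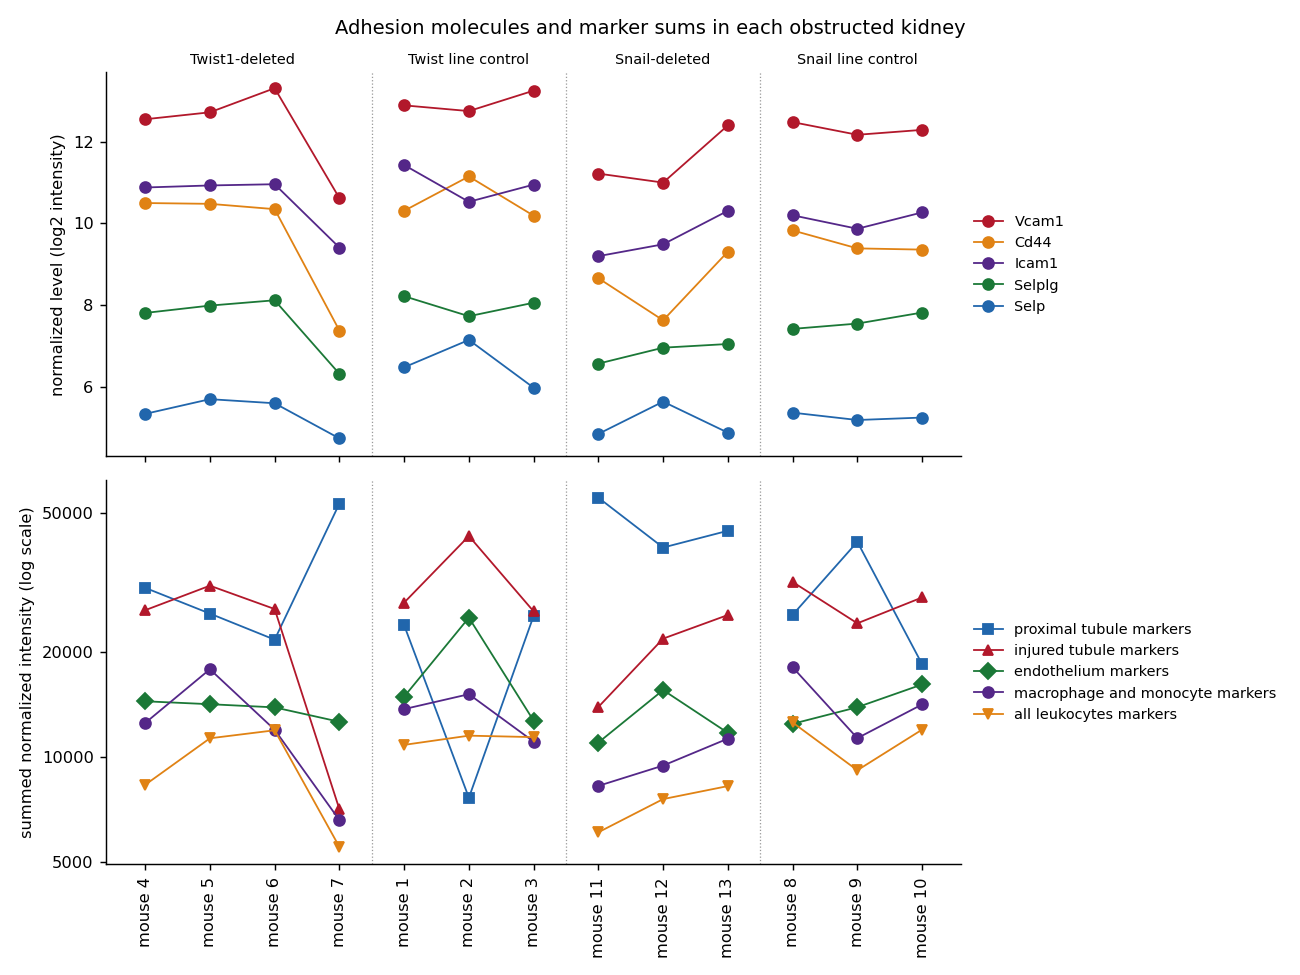
Normalized log2 level of the 5 tested members (top) and summed normalized intensity of 5 marker lists (bottom, log axis) in each of the 13 obstructed kidneys, by genotype; lines join kidneys of a group and carry no order. Mouse 7 was lowest in Vcam1, Selp, Selplg and Cd44, and mouse 2 combined the highest Selp (7.15) and endothelial sum (25075) with the lowest proximal tubule sum (7626).

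Across the obstructed kidneys, 8 of the 15 pairs of members correlated with an adjusted p below 0.05 (Pearson's r, permutation test of 100000 resamples, Benjamini-Hochberg over 15 pairs). Pairs with Sele, which was detected on no array, compare background levels but count among the 15 and in the adjustment. Because 3 kidneys stood apart, the coefficients are given in the other 10. There, Vcam1 and Icam1 had r = 0.76 and rho = 0.89 (permutation p = 0.0118 and 0.00145, adjusted p = 0.0589 and 0.0212), and r = 0.88 without the 2 kidneys farthest from the Vcam1 median. Icam1 and Selplg had r = 0.77 and rho = 0.85 (permutation p = 0.00822 and 0.00283, adjusted p = 0.0589 and 0.0212), and r = 0.77 without the 2 farthest. Selp and Cd44 had r = 0.81 and rho = 0.71 (permutation p = 0.00279 and 0.0269, adjusted p = 0.0418 and 0.0806), and r = 0.73 without the 2 farthest. This was the 1 of 15 pairs whose r passed in the 10 kidneys. Both the absence of the 3 low kidneys and the smaller number of kidneys bear on that count, and they cannot be told apart here. The 10 kidneys come from 4 groups, and as deviations from the group means of all 13 the r was 0.88 for Vcam1 with Icam1 (0.76 without the 2 farthest), 0.9 for Icam1 with Selplg (0.74) and 0.46 for Selp with Cd44 (0.01). These deviations include the 3 low kidneys, and no such value was computed for the 10 alone.

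The genes most like each member over the 12 group means are given as a description, since all points share the difference between obstructed and other kidneys. For Vcam1 they were S1pr2, Glipr2 and Cep170 (r = 0.996, 0.995 and 0.995), for Icam1 Fblim1, Rab31 and Agrn (0.996, 0.994 and 0.993), and for Cd44 Serping1, Mmp11 and Axl (0.996 each). For Selplg they were Pdgfra, Zeb1 and H2-D1 (0.986, 0.985 and 0.985). Those of Selp were less alike, namely Hcar2 (0.959), Lrig3 (0.936) and Sorcs2 (0.934). Over the deviations of the 13 obstructed kidneys from their group means, Vcam1 was most like Cd47 (0.98), Relb (0.976) and Nelfb (0.974), and Icam1 most like Cd86 (0.968), Elp3 (0.968) and Taf8 (0.956). Over the same deviations, Selplg was most like Zfp213, Nrbp1 and Edn1 (0.977, 0.976 and 0.972), Cd44 most like Rab22a, Parp8 and Gtpbp4 (0.962, 0.957 and 0.95), and Selp most like Copb2, Tpm3 and Nsa2 (0.962, 0.955 and 0.955).

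Deletion of Twist1 in the proximal tubule was compared with the floxed controls in obstructed kidneys. All 5 tested members had lower means in the Twist1-deleted kidneys, and Selp alone passed (log2 difference -1.19, SE 0.23, adjusted p = 0.0404), as 1 of 4 genes called among 12866 (0.0311%). The 4 Twist1-deleted kidneys, at 4.74 to 5.7, lay below the 3 control kidneys, at 5.98 to 7.15, a separation not counted over all genes. The other differences were -0.67 for Vcam1 (95% interval -1.57 to 0.23), -0.87 for Cd44 (-1.82 to 0.07), -0.43 for Icam1 (-1.02 to 0.16) and -0.44 for Selplg (-1.07 to 0.19), with adjusted p between 0.473 and 0.598. Without the obstructed kidneys of mice 7, 11 and 12 they were -0.11 for Vcam1, -0.11 for Cd44, -0.05 for Icam1 and -0.03 for Selplg. These kidneys, all from deleted mice, were picked after the data were seen, for low values of these genes. Leaving them out had to raise the deleted means, so the smaller differences are no test of the deletion.

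The Selp call depended on the setting. It was lost with the mouse as a random block (adjusted p = 0.0671), without mouse 2 (-0.88, adjusted p = 0.21), without mouse 4 (-1.19, adjusted p = 0.0627) and without mouse 7 (-0.99, adjusted p = 0.286). It held in 4 of 11 alternative settings, with adjusted p between 0.0159 and 0.906, and in 4 of 7 runs that left out 1 kidney. The difference was negative in all of them. In the contralateral kidneys Selp was not well above background in any of 3 Twist1-deleted mice and was detected in 3 of 3 controls, at least 1.25-fold lower (group means 4.58 and 5.43, unadjusted p = 0.00158, adjusted p = 0.584). None of the 5 members was called there, against 0.00777% of all genes, and 1 of 5 had an unadjusted p below 0.05 in limma. The deletion effect on Selp was not shown to differ between obstructed and contralateral kidneys (interaction -0.35, 95% interval -1.02 to 0.33, adjusted p = 0.902), with the Twist1-deleted contralateral kidneys at background. No member passed this interaction, nor did any of the 12866 genes (0%), and 0 of 5 members had an unadjusted p below 0.05. Endothelial marker sums were 12599 to 14427 in Twist1-deleted and 12689 to 25075 in control obstructed kidneys, and platelet sums 226 to 441 in Twist1-deleted and 212 to 1696 in control kidneys. Their part in the Selp difference was not tested.

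Deletion of Snail gave no call among the members. In obstructed kidneys all 5 means were lower in Snail-deleted mice, and 0 of 5 passed in limma, as did 0% of all genes. An unadjusted p below 0.05 was found for 1 of 5. Cd44 measured 8.53 ± 0.85 in Snail-deleted and 9.53 ± 0.27 in control kidneys (SD, n = 3 each, log2 difference -0.99, adjusted p = 0.466), and Selplg 6.86 ± 0.26 in Snail-deleted and 7.6 ± 0.2 in control kidneys (-0.73, unadjusted p = 0.0335, adjusted p = 0.408). The groups did not overlap for these 2 genes, but for Cd44 the highest Snail-deleted kidney (9.31) was just below the lowest control kidney (9.36). How many of all genes separate in this way was not counted. Vcam1 differed by -0.77 (95% interval -1.73 to 0.19), Icam1 by -0.44 (-1.07 to 0.19) and Selp by -0.14 (-0.64 to 0.35). Without the obstructed kidneys of mice 7, 11 and 12, Vcam1 and Icam1 differed by 0.09 and 0.19 and Cd44 by -0.22, with 1 Snail-deleted kidney left and its spread taken from the other groups. Those kidneys were picked after the data were seen, for low values of Vcam1, Icam1 and Cd44. Leaving them out therefore had to raise the Snail-deleted means of these genes. Selplg and Selp then differed by -0.54 and -0.38. Array weights, which give arrays that fit poorly less influence, called Cd44 (-1.23, adjusted p = 0.0314). In contralateral kidneys, 0 of 5 passed (0% of all genes), with 0 of 5 at an unadjusted p below 0.05. The differences were -0.65 for Cd44, -0.6 for Selplg, -0.35 for Vcam1 and -0.34 for Icam1. The group mean of Selp was at least 1.04-fold higher in Snail-deleted mice, since no control kidney had it well above background. The groups overlapped, and the interval of the measured difference included no change (log2 difference 0.27, 95% interval -0.23 to 0.76). The interaction of Snail deletion with obstruction was passed by 0 of 5 members and 0% of all genes (0 of 5 unadjusted), with estimates between -0.42 and -0.1.

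The 2 floxed control lines differ in background, C57Bl/6 with sv129 in the Twist line and C57Bl/6 with Balb/c in the Snail line. In obstructed kidneys 2 of 5 members were called, against 22.2% of all genes, and both were higher in the Twist-line controls. Selp was 6.48, 7.15 and 5.98 in Twist-line and 5.37, 5.19 and 5.25 in Snail-line kidneys (log2 difference 1.27, SE 0.24, adjusted p = 0.000511), and the lines did not overlap, a separation not counted over all genes. This call held in all 10 other settings and in all 6 runs that left out 1 kidney, with differences of 0.53 to 1.55. Icam1 was 11.43, 10.53 and 10.95 in Twist-line and 10.2, 9.87 and 10.27 in Snail-line kidneys (0.86, SE 0.31, adjusted p = 0.044). The Icam1 call was lost with the mouse as a random block (adjusted p = 0.0516), and the difference was 0.38 with median scaling and 0.28 in the authors' deposited values, neither of which passed. The median of all genes moved by -0.20 under median scaling and by -0.40 in the deposited values. Leaving out 1 kidney kept it in 1 of 6 cases, and it was lost without mouse 1, 3, 8, 9 or 10 (adjusted p up to 0.194).

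Of the endothelial markers, Cdh5 (1.09, adjusted p = 0.00828), Tie1 (1.0, adjusted p = 0.0016) and Vwf (1.72, adjusted p = 0.0146) were higher in obstructed Twist-line kidneys. The other endothelial markers were not called, and 22.2% of all genes were called in this comparison. The tubular transporters Slc22a6 (-2.15, adjusted p = 0.0127) and Slc34a1 (-0.92, adjusted p = 0.0494) were lower. Endothelial sums were 12689 to 25075 in Twist-line and 12429 to 16123 in Snail-line obstructed kidneys. Their part in the Selp and Icam1 differences was not tested.

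Cd44 (1.02, adjusted p = 0.139), Vcam1 (0.65, adjusted p = 0.344) and Selplg (0.4, adjusted p = 0.406) also had higher means in the Twist line. In contralateral kidneys no member passed, against 13.4% of all genes, and 1 of 5 had an unadjusted p below 0.05. That was Selp, which was detected in 3 of 3 Twist-line and 0 of 3 Snail-line contralateral kidneys and was at least 1.38-fold higher in the Twist line (group means 5.43 and 4.75, adjusted p = 0.0616). No member passed the test of a different response to obstruction in the 2 lines (0 of 5 in limma and 0 of 5 unadjusted, against 0.0389% of all genes), with interactions between 0.59 and 1.02. Of the pathway genes, Cd47 (1.12, SE 0.25, adjusted p = 0.00228), Cd99 (1.01, SE 0.31, adjusted p = 0.0182) and Cdh5 (1.09, SE 0.29, adjusted p = 0.00828) of the 17 endothelial genes were higher in obstructed Twist-line controls, as were B3gnt3 (1.71, adjusted p = 0.00131), Cemip2 (1.25, adjusted p = 5.26e-05), Ltbr (0.95, adjusted p = 0.00275) and Relb (1.18, adjusted p = 0.0338). St3gal3 was lower (-0.54, adjusted p = 0.0114). With 22.2% of all genes called in this comparison, these calls are not particular to the lists. In contralateral kidneys Alcam (0.78), Cd47 (0.81) and Cemip2 (0.82) were higher and Jam3 (-1.04) and Pecam1 (-0.76) lower in the Twist line, with adjusted p between 0.00526 and 0.0462. The share of all genes called there was 13.4%.

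**Figure D5:**
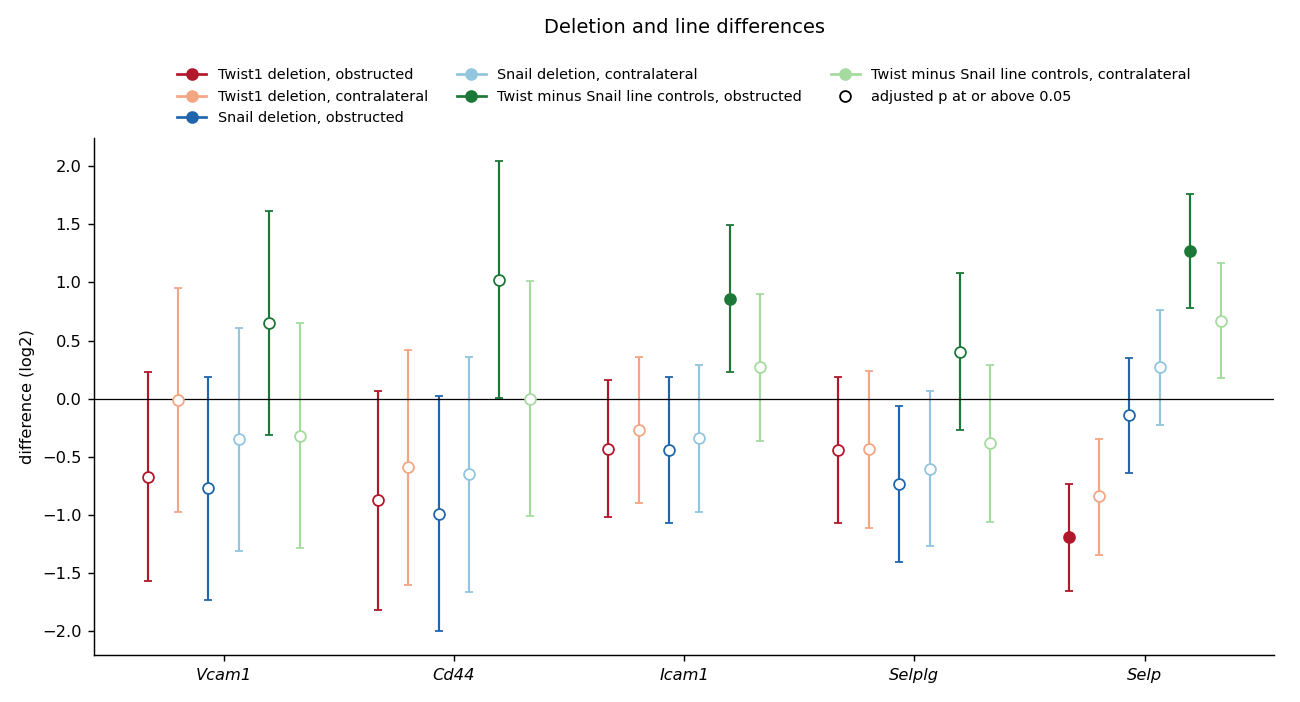
Log2 difference of each tested member for Twist1 deletion, Snail deletion and Twist-line minus Snail-line controls, in obstructed and in contralateral kidneys, with 95% intervals from limma; filled circles passed an adjusted p of 0.05. Selp passed for Twist1 deletion (-1.19) and between the lines (1.27) in obstructed kidneys, and Icam1 (0.86) between the lines.

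Against unoperated kidneys, the members were high in obstruction and not called in the contralateral kidney. In obstructed Twist-line controls 5 of 5 were higher than in healthy wild-type kidneys without cre, against 31.5% of all genes. The log2 differences were 5.51 for Cd44 (adjusted p = 1.61e-09), 5.28 for Vcam1 (1.5e-09), 3.25 for Icam1 (3.61e-09), 2.82 for Selplg (5.95e-08) and 1.67 for Selp (1.48e-06). In contralateral kidneys of the same mice 0 of 5 passed, against 17.8% of all genes, with 1 of 5 at an unadjusted p below 0.05. That was Selp (log2 difference 0.56, unadjusted p = 0.0287, adjusted p = 0.112, limma), and the groups overlapped. Icam1 was 8.66, 8.12 and 8.17 there, against 7.45, 8.1 and 7.63 in healthy kidneys (0.59, 95% interval -0.03 to 1.22, adjusted p = 0.188). The lowest contralateral kidney was barely above the highest healthy one. In contralateral kidneys of Snail-line controls 0 of 5 passed in limma (0.459% of all genes, 1 of 5 unadjusted), and the line and the wild-type mice differ in background. In the list genes, Alcam (0.91), Cd47 (0.77), C1galt1 (0.51) and Cemip2 (0.76) were higher and Jam3 (-1.05), Spn (-0.64) and Cd99l2 (-0.35) lower in contralateral Twist-line than in healthy wild-type kidneys, with adjusted p between 0.00636 and 0.0387. The share of all genes called in that comparison was 17.8%.

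In healthy wild-type mice, 0 of 5 members passed the comparison of mice with and without cre in limma (0 of 5 unadjusted, against 0.0155% of all genes called), with differences between -0.36 and 0.13. In healthy Twist1-deleted mice 0 of 5 members passed against wild-type mice with cre, against 3.4% of all genes, and 2 of 5 had an unadjusted p below 0.05. Vcam1 was 8.57, 8.34 and 8.04 in Twist1-deleted mice, against 7.42, 7.61 and 6.96 in wild-type mice with cre (0.99, 95% interval 0.03 to 1.95, adjusted p = 0.242). Selplg was 5.95, 6.23 and 6.16 in Twist1-deleted mice, against 4.72, 5.66 and 5.49 (0.82, adjusted p = 0.152). The groups did not overlap for either gene, and how many of all genes separate in this way was not counted. In healthy Snail-deleted mice 0 of 5 passed in limma (0.886% of all genes, 1 of 5 unadjusted), and Selplg, at 6.08, 6.24 and 5.86, lay above the same wild-type kidneys (0.77, adjusted p = 0.383). Among the list genes, F11r (0.66, adjusted p = 0.00502), St3gal6 (0.75, adjusted p = 0.0319) and Cd74 (1.02, adjusted p = 0.0449) were higher in healthy Twist1-deleted mice, and so were the leukocyte gene Cd52 (1.19, adjusted p = 0.044), the macrophage gene Mpeg1 (1.85, adjusted p = 0.0241) and the T-cell gene Cd3e (0.92, adjusted p = 0.0208). Mpeg1 was also higher in healthy Snail-deleted mice (2.07, adjusted p = 0.0162). These deleted mice were 26 weeks old and the wild-type mice 10 weeks old, so age and genotype cannot be told apart. The Snail-deleted mice also differed from the wild-type mice in background, which cannot be told apart either.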

How the data were processed

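RNA from 37 kidneys was hybridised to Illumina mouse arrays and read with GenomeStudio 5.0, per the submitters' processing notes. The authors deposited, per probe and array, a non-normalized signal intensity and a detection p-value, and separately a table of processed intensity values whose scale is linear, since each array's values correlated with its signals at r = 1, with medians of 6.4 to 16.1 per array; how they were centred is not given in the sources used here.

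The intensities were background-corrected, quantile-normalized and log2-transformed with neqc (limma 3.58.1, R 4.3.3, offset 16). Probes detected (p below 0.05) on at least 3 arrays were kept, 20612 of 45281, and each gene was read from its kept probe with the highest mean signal. Gene names came from the platform annotation, 34885 probes with 1 symbol, 18 with several and 10378 with none, updated to RefSeq (GRCm38.p6). Group means of 12 groups were fitted with lmFit and eBayes and compared in 20 contrasts, adjusted over 12866 genes. Labels number the mice, so obstructed and contralateral kidneys of the same number are paired, and the residuals of the 12 pairs correlated at 0.174 to 0.635. Replicates are separate mice. An "at least" fold sets the brighter group's mean against, per array, the higher of the dim probe's level and the lowest level among detected probes. It bounds the ratio of the group means and takes no account of their sampling error.

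Named genes were all 6 members, at most 3 per direction of each pathway list by size of the obstruction change among those called, list members called where fewer than 6 of a list passed, and the 3 genes most like each member. The members and lists were chosen with earlier results of these data known. Permutations used NumPy 2.4.6 and SciPy 1.17.1 and the pipeline was tested on simulated data. The alternatives covered normalization, the deposited processed values, detection filters, probe averaging, the mouse as a block, the arrays fitted, weights, the variance model and leaving out each array. The contralateral kidney of mouse 5 was not analysed here.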

Additional observations from a re-analysis of the deposited data

Results flagged for a closer look

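Among the 4 obstructed kidneys of Twist1-deleted mice, that of mouse 7 lay far below the others in 3 measures. Cd44 was 7.38 there, with a gap to the nearest kidney of 0.952 of the group's range, and Icam1 was 9.41, with a gap of 0.948. The summed injured tubule markers were 7070, with a gap of 0.89 on the log2 scale. Each gap is above Dixon's critical value for 4 samples, which chance alone passes in about 1 of 20 groups.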

How the results depend on the processing

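No member's call changed sign. Of 1075 member log2 changes under the alternatives, 1037 counted as unchanged, as did 790 of 800 with 1 array left out. Unchanged means the same side of the threshold, and the same direction or, if uncalled, a change of sign by at most 1 SE. The number of members called for obstruction stayed at 5 over the mean of 4 genotypes and in Twist-line controls and at 4 in Snail-deleted mice. It was 4 in Twist1-deleted mice with the deposited values, the fixed replicate block or only the groups compared, and 5 in Snail-line controls with median scaling, only the groups compared or array weights. For Twist1 deletion in obstructed kidneys it was 0 with median scaling, with the deposited processed values, with no filter on dim probes, with the mouse as a random replicate block, with only the groups compared, with array weights and without the 3 low kidneys, and 0 to 1 with 1 kidney left out. Between the lines in obstructed kidneys it was 1 with median scaling, the deposited values, no filter, the random block or only the groups compared, and 1 to 2 with 1 kidney left out. Array weights gave 2 members in healthy Twist1-deleted mice (1 with only the groups compared) and 1 each for Snail deletion in obstructed kidneys, healthy Snail-deleted mice, contralateral Twist-line controls against healthy mice, and the lines' contralateral kidneys. Of 15 member pairs, those with undetected Sele included, 1 passed without the 3 low kidneys, against 8 with them. The cause of these shifts was not tested, beyond the fewer genes or arrays that some settings hold. Genes called for Snail deletion in obstructed kidneys numbered 0, against 58 with median scaling and 486 with array weights, and for Twist1 deletion 4, against 0 to 8 under the alternatives, 21 without mouse 1, 0 without mouse 2, 81 without mouse 3, 34 without mouse 5, 10 without mouse 6 and 1 without mouse 7. The share of higher among called genes was 54% for obstruction, 71.9% with median scaling and 41.9% in the deposited values; between the lines it was 54.5%, 20.3% and 10.9% with obstruction, and 54.5%, 9.1% and 8.9% without it. A block on array chip was not run, since the headers name no chip. Leaving out the 3 low kidneys was chosen after seeing the data. Signal near background limits Selp, Sele, Twist1 and Snai1.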
